A study of Mus musculus with 2 samples.

Results

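Dividing pre-neutrophils are the last proliferating stage of the neutrophil lineage in the marrow, and here they were cells chosen by a rule on their own transcripts. A barcode of the droplet single-cell RNA-seq libraries was a member when it had at least 200 genes and at most 10% mitochondrial UMIs (unique molecular identifiers, each standing for 1 captured transcript), when S100a8 and S100a9 together made at least 2% of its UMIs, and when Mki67 and Top2a together had at least 2 UMIs. Members also had under 1% of UMIs from Mpo, Elane, Prtn3 and Ctsg, at most 2 UMIs from Csf1r, F13a1 and Ccr2, under 5% from the 4 adult globin genes, and at most 1 from Cd79a and Cd79b. The rule found 648 members among 12259 cells that passed the barcode filter (5.29%), out of 17045 barcodes in all.

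Marrow of C57BL/6 mice aged 6 months, labelled with atherosclerosis, was profiled with 10x Genomics 3′ chemistry in 2 libraries. One carried the label Apoe(-/-), Itgb3(-/-) and is called the null-labelled library. The other carried Apoe(-/-), Itgb3(+/+) and is called the wt-labelled library. By label both groups lacked Apoe, whose protein clears lipoproteins from blood, and they differed in Itgb3, the gene of integrin β3. How many animals stand behind a library, their diet and the form of the Itgb3 allele are not stated in the labels. With 1 library per genotype there was no replicate, no test between genotypes was possible, and every 95% interval below covers counting error only.

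Neutrophils arise from granulocyte-monocyte progenitors through promyelocytes, which make the proteases of the primary (azurophil) granules. Pre-neutrophils, which correspond to late promyelocytes and myelocytes, still divide while they switch to the proteins of the secondary granules under the transcription factor C/EBPε, and their progeny leave the cell cycle and then fill the tertiary granules. The order of granule genes is thus a clock of neutrophil maturation in marrow.

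The null-labelled library supplied 191 members with 3639166 UMIs and the wt-labelled library 457 members with 6047458 UMIs. Depth per cell differed between them, with a median of 18885 UMIs and 3038 genes in null-labelled members and 12361 UMIs and 2462 genes in wt-labelled members. Mitochondrial genes took a median of 1.22% of UMIs in null-labelled members and 1.56% in wt-labelled members. The libraries shared 11 barcodes, none of them a member in both. By Scrublet score, 1 null-labelled member (0.524%) and 34 wt-labelled members (7.44%) were among the cells marked as likely doublets. The marking took a preset share of each library that grew with its number of cells. It covered 71 of 2974 null-labelled and 690 of 9285 wt-labelled cells, so the member shares are not directly comparable between libraries. Counts of a gene were summed over the members of a library and divided by their total as counts per 1000000 (CPM).

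Itgb3 itself (ENSMUSG00000020689, chromosome 11 from 104608000 to 104670476, plus strand, GRCm38) was sparse in members of both libraries, with 23 UMIs or 6.32 CPM in null-labelled members and 67 UMIs or 11.1 CPM in wt-labelled members, a ratio of 0.570 (95% interval 0.339 to 0.928). The Itgb3 transcript was thus still counted in the library labelled null. A 3′ count lies outside many deletions, so it does not check the label. Of its partners, Itga2b, the platelet α subunit, had 0 and 3 UMIs in null-labelled and wt-labelled members. Itgav, the α subunit of other cells, had 32 UMIs in null-labelled members and 52 in wt-labelled members (8.79 and 8.60 CPM). Apoe had 7 UMIs in null-labelled members and 240 in wt-labelled members, where 10 cells held 68.8% of them, 5 of these marked as doublets. Apoe transcripts were thus counted in libraries labelled deficient for it, and for Apoe too a 3′ count does not check the label.

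All 5 markers of the stage were above 200 CPM in both libraries. S100a8, an alarmin subunit, had 149808 CPM in null-labelled members, against 147601 CPM in wt-labelled members. Camp, the cathelicidin of secondary granules, had 36059 CPM in null-labelled members, against 66220.2 CPM in wt-labelled members. Fcnb, a ficolin of early granules, had 502 and 875 CPM, Cebpe, the factor C/EBPε, 395 and 760.3 CPM, and Top2a, the topoisomerase of dividing cells, 216 and 557 CPM in null-labelled and wt-labelled members. S100a8 and Top2a were used by the rule, and Camp, Fcnb and Cebpe were not.

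Markers of other cells were low but not equal between the libraries. The 7 monocyte markers summed to 12.1 CPM in null-labelled and 16.9 CPM in wt-labelled members, the 7 macrophage markers to 19.8 and 78.5 CPM, the 9 B cell markers to 3.30 and 15.0 CPM, and the 8 megakaryocyte and platelet markers to 0.824 and 11.7 CPM. Stem and progenitor markers summed to 1.37 CPM in null-labelled and 36.7 CPM in wt-labelled members, eosinophil markers to 4.67 and 47.6 CPM, basophil and mast cell markers to 1.92 and 4.46 CPM, plasma cell markers to 64.3 and 82.0 CPM, and T and NK cell markers to 24.7 and 99.4 CPM, nearly all Nkg7 in both. The dendritic cell markers summed to 400.4 CPM in null-labelled and 31.6 CPM in wt-labelled members, of which Bst2, also an interferon-induced gene, made 388 CPM in null-labelled members, where Siglech, Flt3, Cd209a and Irf4 were at 0 UMIs. Along the lineage itself, promyelocyte markers summed to 936 and 1129 CPM and mature neutrophil markers to 654 and 1301 CPM in null-labelled and wt-labelled members. The 10 erythroid markers summed to 537 CPM in null-labelled members, with Klf1 at 0 UMIs, and to 1660 CPM in wt-labelled members, with all 10 detected. Of these, Car2, the carbonic anhydrase of red cells, had 6 UMIs in null-labelled and 923 UMIs in wt-labelled members, and 10 wt-labelled cells held 93.6% of the wt-labelled count. No null-labelled member and 13 wt-labelled members had 5 or more UMIs of Car1 and Car2, 7 of the 13 being marked as doublets. The part of these cells in the comparisons was not tested as a cause, and values without them are given for calls of a list that end without them.

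The division limit was the one with most cells on either side. Among cells that met the other conditions, the share of UMIs from S100a8 and S100a9 was 0.0788% in the highest null-labelled cell outside and 2.16% in the lowest inside, and 2.00% and 2.05% in the wt-labelled library. Cells with exactly 1 UMI of Mki67 and Top2a, just outside, numbered 42 in the null-labelled and 127 in the wt-labelled library. Those with exactly 2 UMIs, just inside, numbered 21 and 26. The highest member share of primary granule genes was 0.904% in the null-labelled and 0.969% in the wt-labelled library, and the lowest cells outside had 1.02% and 1.01%.

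Members made up 191 of 2974 cells of the null-labelled library, 6.42% (95% interval 5.57 to 7.36%), and 457 of 9285 cells of the wt-labelled library, 4.92% (4.49 to 5.38%). The ratio of the shares was 1.30 (1.11 to 1.54). It turned to 0.645 (0.534 to 0.780) when every barcode was thinned to 5000 UMIs before the rule was applied, with 133 of 2368 null-labelled barcodes (5.62%) and 404 of 4640 wt-labelled barcodes (8.71%). The direction of the share is therefore not settled by these libraries. Among all neutrophil-lineage cells that met the rule apart from division, 191 of 630 null-labelled cells (30.3%) and 457 of 2800 wt-labelled cells (16.3%) had the 2 UMIs. Thinned to 2000 UMIs, 120 of 606 null-labelled cells (19.8%, 16.7 to 23.2%) and 429 of 2294 wt-labelled cells (18.7%, 17.1 to 20.4%) had at least 1 UMI of Mki67 or Top2a, and the intervals overlapped. Unthinned, 37.0% and 20.9% had at least 1 such UMI. Thinning left out 24 null-labelled and 506 wt-labelled cells that were too shallow, and the effect of this unequal loss on the shares was not tested. In whole marrow a share also moves with every other cell type captured.

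Between their neighbours in the lineage, members held an intermediate position that the rule fixed in part. The neighbours were promyelocyte and progenitor cells with at least 1% of UMIs from primary granule proteases (34 null-labelled and 225 wt-labelled cells), non-dividing immature neutrophils with no UMI of Mki67 or Top2a and at least 1% from Camp, Ltf, Ngp and Lcn2 (396 and 1368 cells), and non-dividing later neutrophils below that limit (1 and 848 cells). Because each stage was cut from the cells' own counts, the levels are a description with no test. Mpo, the myeloperoxidase of primary granules, had 2596, 80.8 and 3.57 CPM in promyelocyte, dividing and immature cells of the null-labelled library, and 5729, 58.4 and 9.31 CPM in those of the wt-labelled library. Ltf, the lactoferrin of secondary granules, had 4.55, 3238 and 4403 CPM along the same stages in the null-labelled library and 182, 6300.3 and 8812 CPM in the wt-labelled library. Lactoferrin transcripts were thus abundant in dividing cells of both libraries, while myeloperoxidase had nearly gone.

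Genes of the later granules had begun but were far below their level after division. Mmp8, the neutrophil collagenase, had 29.95 CPM in dividing and 683 CPM in immature cells of the null-labelled library, and 95.7 and 2726 CPM in the wt-labelled library. Retnlg, a resistin-like protein of late neutrophils, had 112 and 3416 CPM in the null-labelled and 691 and 20339 CPM in the wt-labelled library. Cebpe was highest in dividing cells among these 3 stages, at 217, 395 and 201 CPM in the null-labelled and 452, 760.3 and 359.7 CPM in the wt-labelled library. Camp had the same order of stages in both libraries, with 5664, 36059 and 28967 CPM in the null-labelled and 17173, 66220.2 and 38289 CPM in the wt-labelled library, and so had Fcnb (412, 502 and 178 CPM, and 610.1, 875 and 109 CPM). Rrm2, the ribonucleotide reductase subunit that supplies DNA precursors, had 180.3, 78.3 and 3.02 CPM in promyelocyte, dividing and immature null-labelled cells and 208, 221 and 3.34 CPM in wt-labelled cells.

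**Figure D1:**
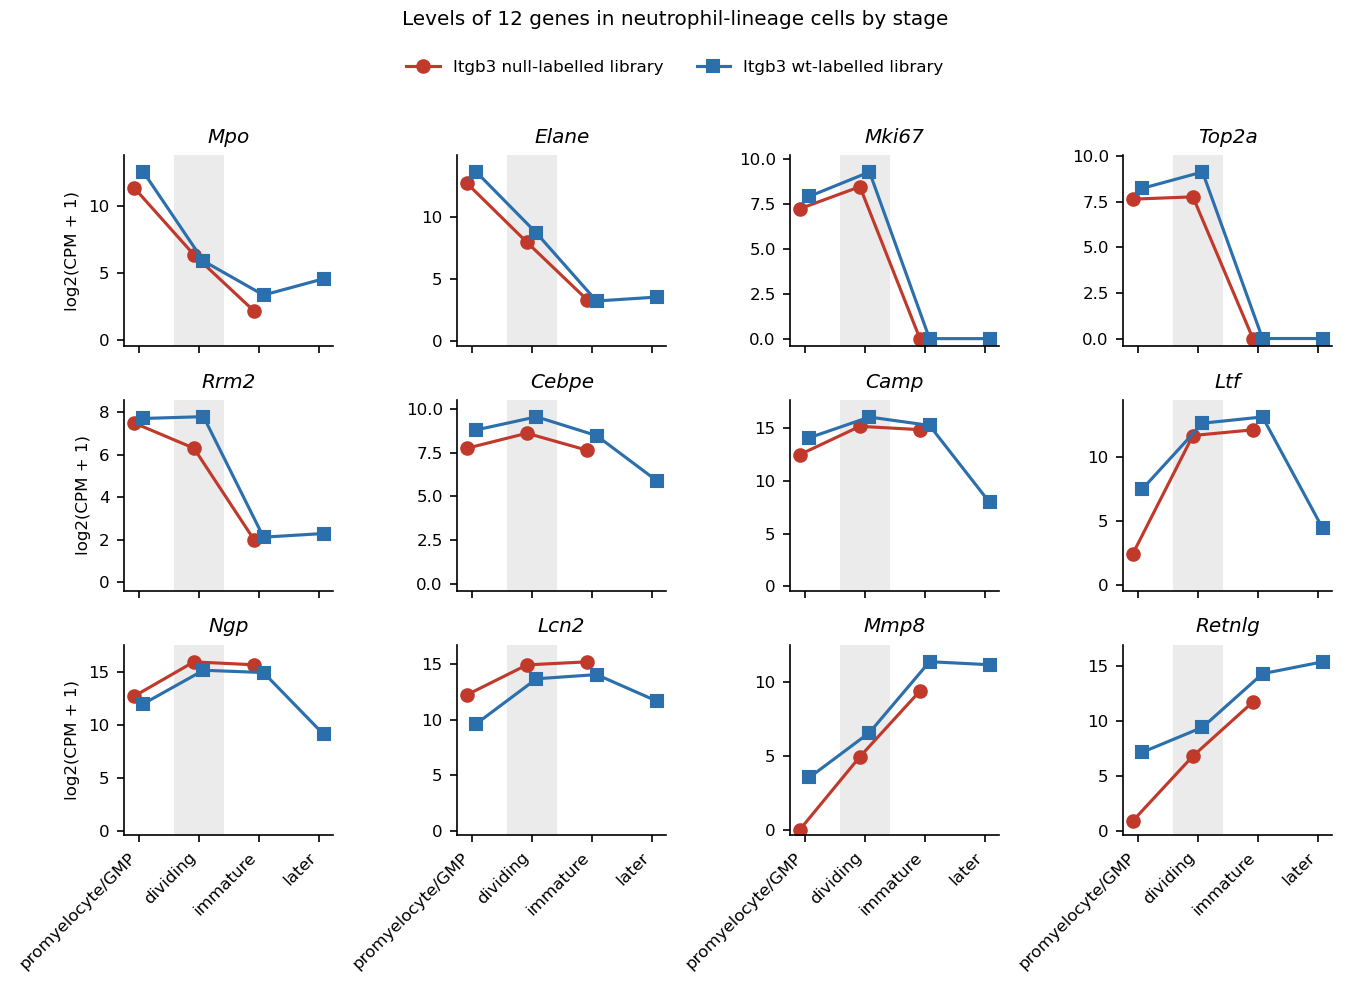
Levels of 12 genes, as log2(CPM + 1) of UMIs summed per library, in promyelocyte and progenitor cells, dividing pre-neutrophils (grey band), non-dividing immature and non-dividing later neutrophils; red circles are the null-labelled and blue squares the wt-labelled library, with no later point for the null-labelled library, which held 1 such cell. Mki67 and Top2a are 0 to the right of the band by the rule. Mpo and Elane decline up to the immature stage, Camp peaks in the band, and Mmp8 and Retnlg are still low there.

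Members were not uniform along this path. Ranked within each library by the share of UMIs from Camp, Ltf, Ngp and Lcn2 and cut into terciles, null-labelled members had a median share of 10.8%, 14.1% and 16.8% in the lowest, middle and highest tercile, and wt-labelled members 10.7%, 13.05% and 14.8%. The terciles are ranges of a score, not cell types. Between the highest and the lowest tercile, 104 of 1647 genes in the null-labelled (6.31%) and 109 in the wt-labelled library (6.62%) were lower 2-fold or more, and 55 were so in both. In the other direction 3 null-labelled (0.182%) and 1 wt-labelled gene (0.0607%) were higher 2-fold or more, none in both. When the 13 wt-labelled members with 5 or more UMIs of Car1 and Car2 were left out and the terciles cut again, 16 wt-labelled genes were lower 2-fold or more and 8 were so in both libraries, so most of the wt-labelled count rested on those cells.

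The genes furthest lower in the highest tercile were those of the promyelocyte, namely Mpo, Elane and Prtn3, which the rule limits, and, in the null-labelled library, genes of growth. Elane, neutrophil elastase, had 664, 43.5 and 3.35 CPM from the lowest to the highest null-labelled tercile and 838, 296 and 66.8 CPM in the wt-labelled library. Ybx3, an RNA-binding protein, had 69.1 CPM in the lowest and 13.4 CPM in the highest null-labelled tercile, and 133 and 36.0 CPM in the wt-labelled ones. Nme1, a nucleoside diphosphate kinase, Mif, a cytokine, the chaperone Hsp90ab1 and the ribosomal protein Rpl12 were the other genes furthest down in both libraries, with ratios of the highest over the lowest tercile between 0.258 and 0.301 in the null-labelled and between 0.0891 and 0.291 in the wt-labelled library. Without the wt-labelled members rich in Car1 and Car2 the wt-labelled ratios were 0.0730 for Elane, 0.202 for Mif, 0.494 for Rpl12, 0.538 for Hsp90ab1, 0.696 for Nme1 and 0.727 for Ybx3. Ratios above 1 were small, and those of the wt-labelled library are given with all members. That of Chil1, a chitinase-like protein, was 1.54 in the null-labelled and 1.52 in the wt-labelled library, that of Plbd1, a granule phospholipase-like protein, 1.83 and 1.43, and that of Cd177, a neutrophil surface glycoprotein, 1.48 and 1.38.

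Along the same terciles the summed level of DNA replication genes declined more than that of mitosis genes. The 32 replication genes summed to 1527, 689 and 656 CPM from the lowest to the highest null-labelled tercile, and to 2554, 1958 and 1617 CPM in the wt-labelled library. Of the 12 with enough counts in both libraries, 9 null-labelled and 0 wt-labelled were lower 2-fold or more in the highest tercile. Of all genes compared 6.31% and 6.62% were. The median log2 ratio of the 12 was -1.19 in the null-labelled and -0.68 in the wt-labelled library. The 43 mitosis genes summed to 6664, 7519 and 6584 CPM in the null-labelled and 9038, 8590.2 and 8188 CPM in the wt-labelled library. Of 7 heat shock genes with enough counts, 1 in the null-labelled and 5 in the wt-labelled library were lower 2-fold or more in the highest tercile, and none in the wt-labelled library without the members rich in Car1 and Car2. The wt-labelled median of the replication genes was then -0.31. The interferon genes had similar sums along the terciles, at 12324, 13278 and 12858 CPM in the null-labelled and 1121, 1004 and 1001 CPM in the wt-labelled library.

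**Figure D2:**
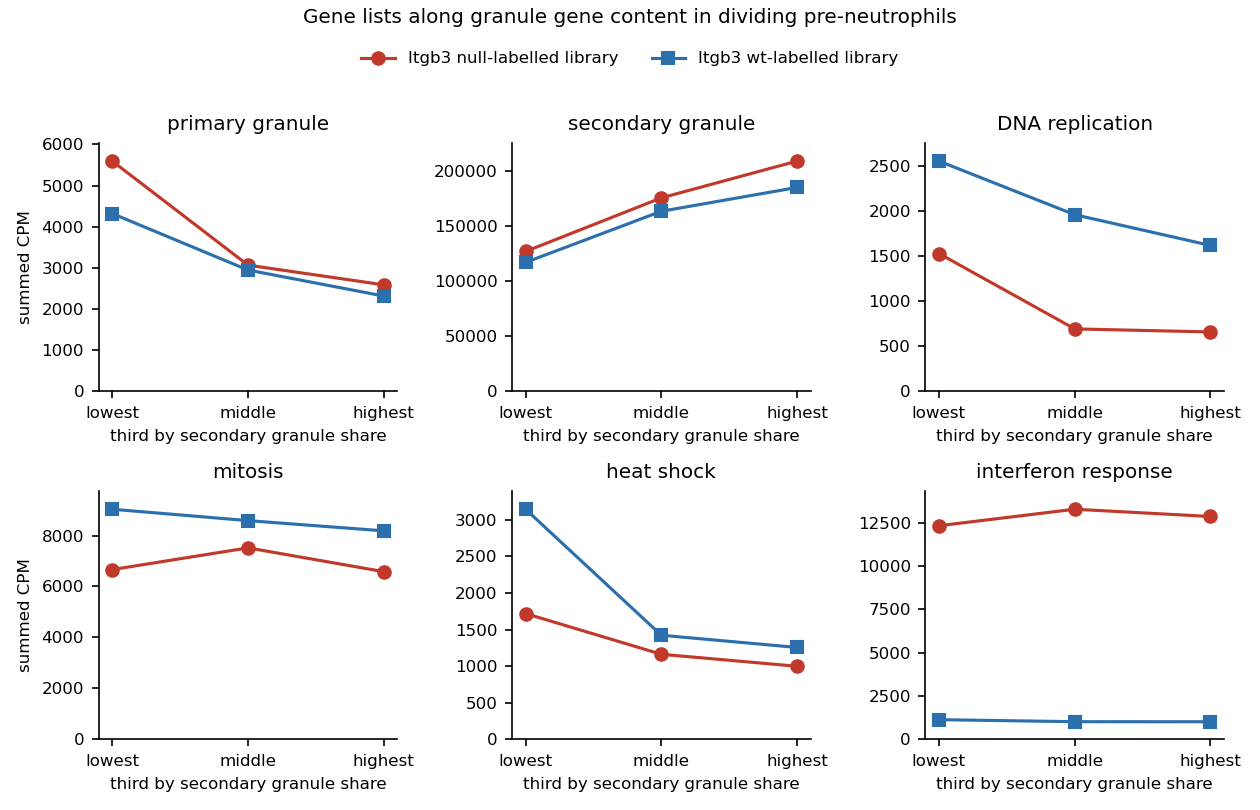
Summed CPM of 6 gene lists (vertical axes from 0) in all members cut within each library into terciles by the share of UMIs from Camp, Ltf, Ngp and Lcn2; red circles are the null-labelled library (64, 64 and 63 cells) and blue squares the wt-labelled library (153, 152 and 152 cells). Primary granule and replication genes decline while secondary granule genes, which include the ranking genes, increase, and the interferon lines run flat and far apart.

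The comparison of the libraries asks how the transcripts of these cells differ with the Itgb3 label. Of 2179 genes that reached 50 CPM in null-labelled or wt-labelled members and 30 UMIs in all, 205 (9.41%) were 2-fold or more higher in null-labelled members and 276 (12.7%) were 2-fold or more lower, while 1698 lay within 2-fold. The median log2 ratio was -0.17. With TMM factors, which rescale the libraries to a common bulk of genes, the counts were 294 higher and 153 lower and the median moved to 0.06, so the higher genes were 42.6% of those past 2-fold by CPM and 65.8% by TMM. Past 4-fold there were 100 genes higher and 36 lower. In what follows a gene is called higher or lower when it passed 2-fold in this set, as a rule of size and not as a test.

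**Figure D3:**
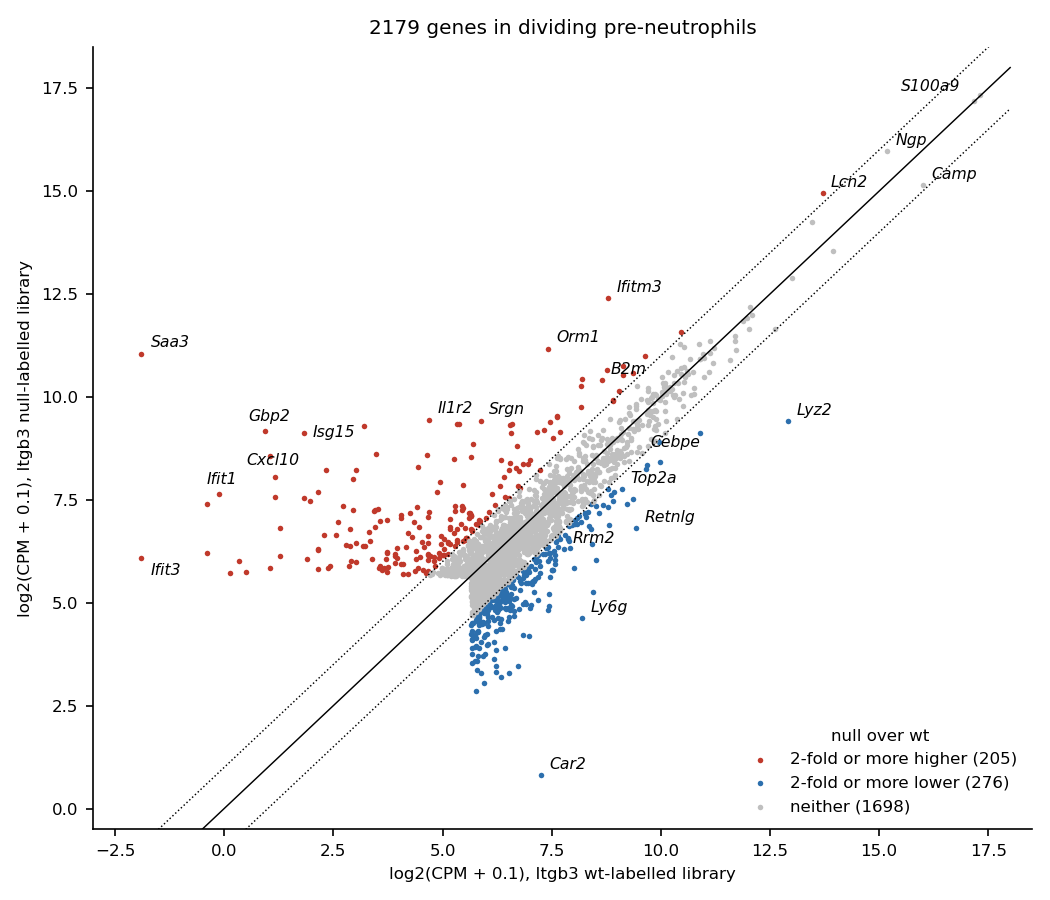
Each point is 1 of 2179 genes, with log2(CPM + 0.1) in null-labelled members on the vertical and in wt-labelled members on the horizontal axis; the solid line marks equality and the dotted lines 2-fold, with 205 genes higher in red and 276 lower in blue. The red genes spread far to the left of the lines, led by Saa3, whereas the blue genes stay nearer to them apart from Car2, Lyz2 and Ly6g.

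Interferon-stimulated genes made up most of the leading genes. Their products are induced through STAT and IRF factors by type I and type II interferons and act against viruses and intracellular microbes. Gbp2, a guanylate-binding GTPase, had 577 CPM in null-labelled members, against 1.82 CPM in wt-labelled members (ratio 317, 95% interval 177 to 636). Isg15, a ubiquitin-like modifier, had 555 CPM in null-labelled members, against 3.47 CPM in wt-labelled members (ratio 159.9, 104 to 259). Zbp1, a sensor of Z-form nucleic acids, had 378 and 1.98 CPM, Ifit1, an antiviral RNA-binding protein, 198 and 0.827 CPM, and Ifit3 67.9 and 0.165 CPM in null-labelled and wt-labelled members. Ifit3 rested on 1 wt-labelled UMI, so its ratio of 410.5 had an interval of 73.0 to 16277. The antiviral enzyme viperin (Rsad2) had 207 and 4.30 CPM, the transcription factor Irf7 178 and 3.80 CPM, the GTPase Igtp 301 and 4.96 CPM, and Xaf1, an antagonist of the caspase inhibitor XIAP, 190.4 and 2.15 CPM, null-labelled first. Rtp4, another interferon-induced gene, had 187 and 3.47 CPM, and Upp1, a uridine phosphorylase, 169 and 0.661 CPM in the same order. All 11 were under 5 CPM in wt-labelled members. They were named because their ratios were furthest higher, and they reached 50 CPM through the null-labelled library alone. Their low wt-labelled level thus follows in part from that choice.

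The whole list moved one way. Each of its 52 genes had a higher CPM in null-labelled members, against 35.5% of the 13614 genes with any UMI, and their sum was 12807 CPM in null-labelled and 1044 CPM in wt-labelled members. Of these, 32 entered the comparison, all 32 higher, where 9.41% of all genes were, with a median log2 ratio of 4.35. That count says little by itself, because 29 of the 32 passed the 50 CPM limit through the null-labelled library alone. Those that reached it in both libraries included Ifitm3 and Ifitm2, which block virus entry at membranes. Ifitm3 had 5406 CPM in null-labelled members, against 442 CPM in wt-labelled members, and Ifitm2 1393 and 293 CPM, null-labelled first. Members of the Ifit, Ifitm, Oas, Gbp and Slfn families have near-identical copies, so the split of reads between neighbours is uncertain.

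The signal was present in nearly every null-labelled cell rather than in a few. With each member thinned to 2000 UMIs, which 190 null-labelled and 452 wt-labelled members could supply, the list had a lowest value of 9, a median of 26 and a highest value of 68 UMIs per null-labelled cell, and of 0, 2 and 12 UMIs per wt-labelled cell. Of the null-labelled cells 183 lay above the highest wt-labelled cell, and 81 wt-labelled cells had no UMI of the list. Gbp2 was seen in 67.9% of thinned null-labelled and 0.664% of thinned wt-labelled members (98.4% and 1.75% unthinned). It was also seen in 50.1% of thinned null-labelled and 1.496% of thinned wt-labelled Cd79-positive cells, so it was not limited to neutrophil precursors. These 503 and 1003 cells had 2 or more UMIs of Cd79a and Cd79b, and median depths before thinning of 4994 and 2490.0 UMIs. By definition they also had under 2% of UMIs from S100a8 and S100a9, no UMI of Mki67 or Top2a, and under 1% from Mpo, Elane, Prtn3 and Ctsg. Isg15 was seen in 59.5% of thinned null-labelled members and in 0 of 452 wt-labelled members, with 15.3% and 3.69% in the Cd79-positive cells. Cxcl10 and Ccl5, chemokines for T cells, behaved differently, since 10 null-labelled cells held 63.2% of 959 Cxcl10 UMIs and 79.3% of 270 Ccl5 UMIs. The log2 ratio of Ccl5 was 6.81, and 1.79 when 1 UMI of Mki67 or Top2a sufficed for membership.

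**Figure D4:**
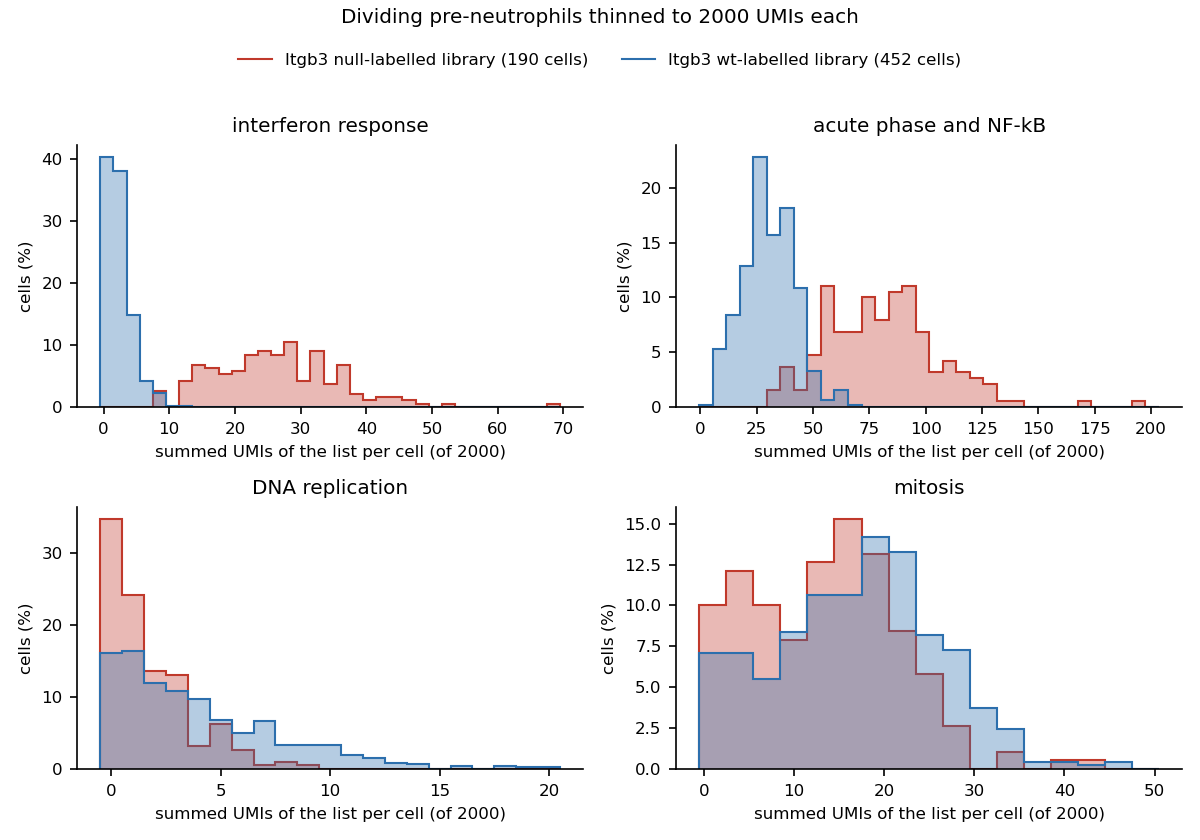
Share of cells (vertical axis, %) by the summed UMIs of 4 gene lists per member thinned to 2000 UMIs (horizontal axis), with 190 null-labelled cells in red and 452 wt-labelled cells in blue. The interferon distributions meet only between 9 and 12 UMIs, the acute phase distributions overlap in part, and the replication and mitosis distributions overlap widely with the null-labelled cells lower. Of the summed acute phase CPM, the single gene Lcn2 made 31705 of 40212 in null-labelled and 13338 of 14817 in wt-labelled members.

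Promoters of the leading genes were examined for a sequence element through which interferon-activated factors are known to act. RefSeq promoters (GRCm38.p6, 250 bases before to 50 after each annotated start) were searched on both strands for GAAA, NN and GAAA in a row (N is any base), the core of the interferon-stimulated response element, no other motif being searched. Of the 14 genes furthest higher, 11 had a promoter in the table and 8 of those (72.7%) held the motif, against 0 of 12 among the 14 furthest lower, 92 of 1746 genes in the comparison (5.27%) and 1079 of all 27025 genes (3.99%). Among all genes called higher it was 36 of 170 (21.2%), and among those called lower 6 of 220 (2.73%). The 250 bases before the start are printed 5′ to 3′ along the gene for 4 of the 8, with each match in capitals, where the other strand reads as TTTC, NN and TTTC.
Saa3 (chr7:46715677-46715926, minus strand): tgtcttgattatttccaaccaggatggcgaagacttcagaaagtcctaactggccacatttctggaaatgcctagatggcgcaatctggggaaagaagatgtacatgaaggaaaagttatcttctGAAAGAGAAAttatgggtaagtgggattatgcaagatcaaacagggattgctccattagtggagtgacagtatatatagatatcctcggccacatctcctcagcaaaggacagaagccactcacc
Gbp2 (chr3:142620413-142620662, plus strand): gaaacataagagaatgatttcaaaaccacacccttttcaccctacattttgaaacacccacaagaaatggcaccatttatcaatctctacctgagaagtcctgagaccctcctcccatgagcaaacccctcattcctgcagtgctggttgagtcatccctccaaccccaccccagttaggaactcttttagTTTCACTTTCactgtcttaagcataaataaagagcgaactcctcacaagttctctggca
Isg15 (chr4:156200819-156201068, minus strand): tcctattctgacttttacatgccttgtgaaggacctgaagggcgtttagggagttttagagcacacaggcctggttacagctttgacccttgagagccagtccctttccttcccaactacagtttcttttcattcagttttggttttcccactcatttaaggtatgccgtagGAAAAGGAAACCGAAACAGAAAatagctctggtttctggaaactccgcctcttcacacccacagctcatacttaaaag
Ifit1 (chr19:34640639-34640888, plus strand): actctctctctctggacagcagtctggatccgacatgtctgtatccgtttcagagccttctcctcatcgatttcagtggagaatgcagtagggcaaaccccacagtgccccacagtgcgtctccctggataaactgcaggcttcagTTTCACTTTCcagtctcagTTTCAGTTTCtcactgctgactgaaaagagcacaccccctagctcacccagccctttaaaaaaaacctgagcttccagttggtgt
Isg15 held 3 overlapping matches and Ifit1 2, and the first began at position -78 and -104 from the start. The matches of Saa3 and Gbp2 began at -125 and -59. A match in these letters is a description and does not show that a factor was bound.

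Antigen presentation by MHC class I, which displays peptides cut by the immunoproteasome, was higher along with the interferon genes. Of its 19 listed genes 18 had a higher CPM in null-labelled members, against 35.5% of all genes with any UMI. Of the 16 compared 15 were called higher, where 9.41% of all genes were, 7 of these 16 having reached 50 CPM through the null-labelled library alone. H2-D1, a class I heavy chain, had 1610.3 CPM in null-labelled members, against 439 CPM in wt-labelled members (ratio 3.67, 3.50 to 3.84). B2m, the light chain, had 1355 and 403 CPM, the peptide transporter Tap1 383 and 24.8 CPM, the immunoproteasome subunit Psmb8 647 and 96.1 CPM, and Nlrc5, the class I transactivator, 53.6 and 1.32 CPM in null-labelled and wt-labelled members. The exception was Pdia3, a chaperone of the loading complex with general tasks in the endoplasmic reticulum, at 118 and 129.8 CPM. Per thinned cell the list had a median of 15.5 UMIs in null-labelled and 3.5 UMIs in wt-labelled members.

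Acute phase genes gave the largest single difference. Saa3 (ENSMUSG00000040026, chromosome 7 from 46711998 to 46715700, minus strand), a serum amyloid A protein made by myeloid cells in inflammation, had 7736 UMIs (2126 CPM) in null-labelled members and 1 UMI (0.165 CPM) in wt-labelled members, a ratio of 12855 whose interval ran from 2307 to 507828. It was seen in 58.4% of thinned null-labelled members and in 4.17% of thinned null-labelled Cd79-positive cells, and its highest null-labelled cell had 465 UMIs against a median of 9. Orm1, an acute phase orosomucoid of secondary granules, had 2308 CPM in null-labelled members, against 170.0 CPM in wt-labelled members (ratio 13.6, 12.7 to 14.5). Lcn2, the siderophore-binding lipocalin of secondary granules, had 31705 and 13338 CPM, the mitochondrial superoxide dismutase Sod2 357 and 38.5 CPM, the histamine-forming enzyme Hdc 642 and 93.1 CPM, and Nfkbia, the NF-kB inhibitor, 570.2 and 208 CPM, null-labelled first. Of the 30 listed genes 24 had a higher CPM in null-labelled members (35.5% of all genes with any UMI had) and 2 a lower one. Of the 10 compared 9 were called higher (9.41% of all genes were), 5 of the 10 having passed through the null-labelled library alone. The one within 2-fold was the NF-kB subunit Nfkb1 (56.9 and 48.8 CPM). Lcn2 was part of the score by which terciles were formed, and Saa3 and Orm1 were high in null-labelled promyelocyte and immature cells as well (2551 and 1496 CPM, 475 and 2427 CPM).

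**Figure D5:**
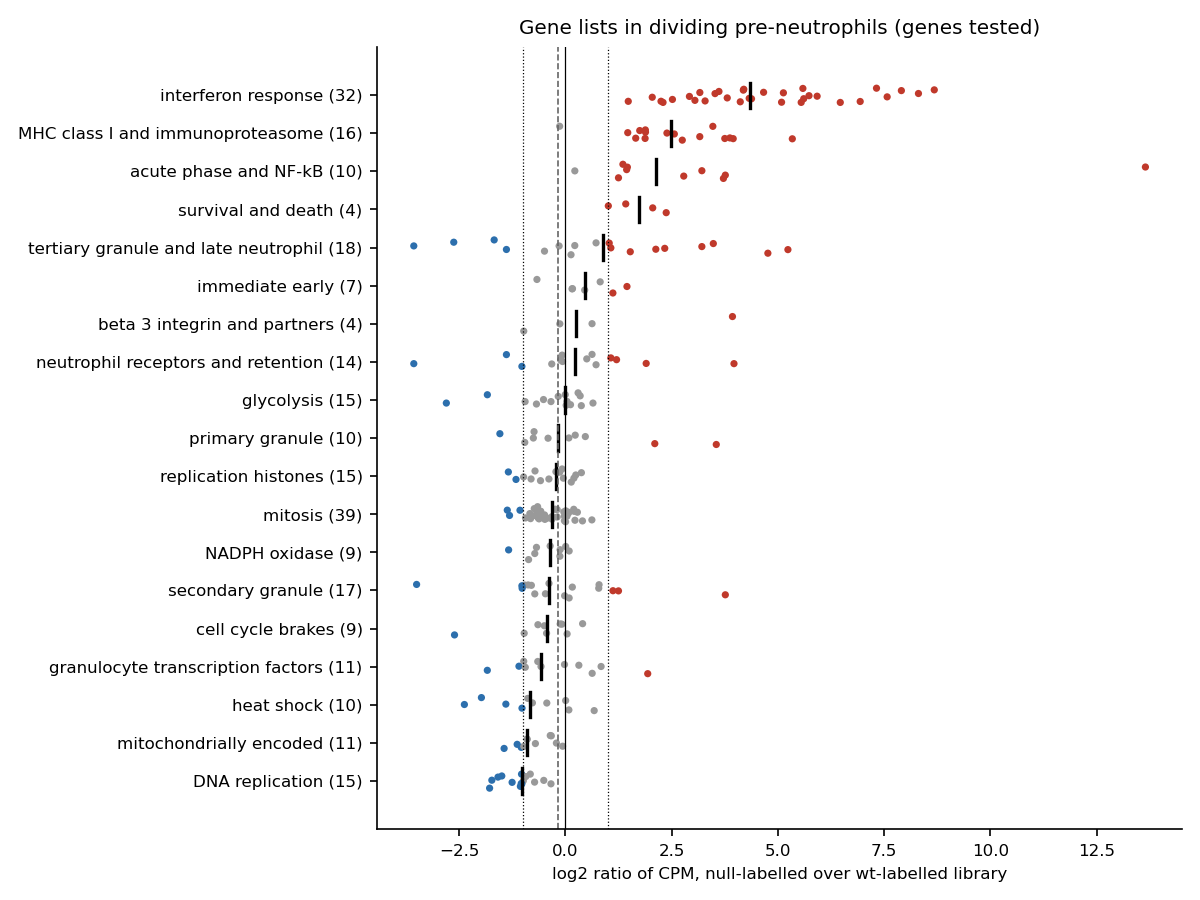
Log2 ratio of CPM, null-labelled over wt-labelled members (horizontal axis), for the compared genes of 19 lists, with their number in brackets; points past 2-fold are red (higher) or blue (lower), black bars are list medians, the dashed line is the median of all genes at -0.17 and the dotted lines mark 2-fold. Interferon, class I and acute phase genes lie to the right, DNA replication and mitochondrially encoded genes to the left, and granule lists spread both ways.

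Granule genes did not move together. In the primary granule list 2 of the 10 compared were called higher and 1 lower, where 9.41% and 12.7% of all genes were. The median log2 ratio of the list was -0.16, and it was above 0 with TMM factors. Srgn, the serglycin core that packs granule proteases, had 688 CPM in null-labelled members, against 58.7 CPM in wt-labelled members (ratio 11.7, 10.5 to 13.1), and Plac8 had 1232 and 287 CPM, null-labelled first. Serpinb1a, the cytosolic inhibitor of these proteases, was lower at 344 CPM in null-labelled members, against 1003 CPM in wt-labelled members. The proteases Elane (247 and 412 CPM) and Prtn3 (455 and 388 CPM) lay within 2-fold, and both were limited by the rule.

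The 17 secondary granule genes compared were all above 50 CPM in both libraries. Of these, 3 were higher and 3 lower, where 9.41% and 12.7% of all genes were. The median log2 ratio of the list was -0.39. With TMM factors 5 were higher and 1 lower, since Itgam and Cnn2 then lay within 2-fold. The higher ones were Lcn2, Orm1 and the haptoglobin gene Hp (3062 and 1409.8 CPM in null-labelled and wt-labelled members). The most abundant member in null-labelled cells was Ngp, neutrophilic granule protein, with 64222 CPM in null-labelled members, against 37089.6 CPM in wt-labelled members, while in wt-labelled cells it was Camp, with 36059 CPM in null-labelled and 66220.2 CPM in wt-labelled members. Neither passed 2-fold by CPM, and with TMM factors Ngp did, at a log2 ratio of 1.02. Ltf had 3238 and 6300.3 CPM, and Chil3, a chitinase-like protein, 19534 and 11342 CPM in the same order. Lyz2, lysozyme of neutrophils and macrophages (ENSMUSG00000069516, chromosome 10 from 117277331 to 117282321, minus strand), was the abundant gene furthest lower, with 681 CPM in null-labelled members, against 7715 CPM in wt-labelled members (ratio 0.0883, 0.0847 to 0.0919). It was seen in 60% of thinned null-labelled and in all 452 thinned wt-labelled members, with 2.39% and 13.2% of thinned Cd79-positive cells. Itgam, the integrin αM subunit of Mac-1, was lower at 129.7 and 264 CPM, as was the actin-binding calponin Cnn2 at 138 and 280.4 CPM, null-labelled first.

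Late neutrophil genes split most widely. Of the 18 compared, 9 were higher and 4 lower, where 9.41% and 12.7% of all genes were. However, 6 passed only through the null-labelled and 3 only through the wt-labelled library. Of the 9 that passed in both, 4 were higher and 1 lower. Il1r2, the decoy receptor of interleukin 1, had 697 CPM in null-labelled members, against 25.6 CPM in wt-labelled members (ratio 27.2, 23.1 to 32.2). Fpr2, a formyl peptide receptor, had 353 and 80.9 CPM and Mxd1, an antagonist of Myc, 333 and 116 CPM, null-labelled first. The stefin Stfa2l1 had 299 and 7.94 CPM, but 10 null-labelled cells held 54.9% of its UMIs and its gene has close copies. In the other direction Ly6g, the surface antigen by which mouse neutrophils are sorted (ENSMUSG00000022582, chromosome 15 from 75155240 to 75159126, plus strand), had 24.7 CPM in null-labelled members, against 293 CPM in wt-labelled members (ratio 0.0843, 0.0674 to 0.104). Retnlg was lower as well (112 and 691 CPM), with 48.8% of its wt-labelled UMIs in 10 cells, 8 of them marked as doublets, and its log2 ratio of -2.63 was -1.48 without the marked cells. Csf3r, the receptor of granulocyte colony-stimulating factor, was lower at 22.8 and 59.7 CPM and Mmp8 at 29.95 and 95.7 CPM.

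Of the granulocyte transcription factors 11 of 21 were compared, and 1 was called higher and 2 lower, where 9.41% and 12.7% of all genes were. Cebpb, the C/EBP factor of emergency granulopoiesis, was the one called higher, with 676 CPM in null-labelled members, against 176 CPM in wt-labelled members (ratio 3.83, 3.56 to 4.12). Cebpd (144 and 307 CPM) and Ets1 (27.8 and 99.2 CPM) were lower. Ets1 had passed the 50 CPM limit through the wt-labelled library alone. With TMM factors 2 were higher and 1 lower, Cebpd then lying within 2-fold, and 4 were lower without the cells marked as doublets. Cebpe had a ratio of 0.520 (0.489 to 0.552), just within 2-fold, and was past it without the cells marked as doublets (log2 ratio -1.01). Spi1, the gene of PU.1, had 468 and 302 CPM. Gfi1, a repressor needed for neutrophil fate, and Myb, a factor of progenitors, were under 50 CPM in both libraries (8.24 and 33.4 CPM, 6.59 and 48.0 CPM, null-labelled first).

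Among the cell cycle genes those of DNA replication were lower in null-labelled members. Each of the 32 listed genes had a lower CPM there, against 64.5% of all genes with any UMI, and they summed to 971 CPM in null-labelled and 2057 CPM in wt-labelled members. Of the 15 compared 9 were called lower, where 12.7% of all genes were, and none higher, with a median log2 ratio of -1.03. That count and the median say little by themselves, because 10 of the 15 had passed through the wt-labelled library alone. Of the 5 that reached 50 CPM in both libraries 2 were lower. Rrm2 had 78.3 CPM in null-labelled members, against 221 CPM in wt-labelled members (ratio 0.354, 0.311 to 0.403). Dut, which removes dUTP, had 55.2 and 183 CPM, Tk1, the thymidine kinase of dividing cells, 17.9 and 61.5 CPM, Lig1, the ligase of lagging strands, 34.3 and 103 CPM, and Mcm5, a helicase subunit, 46.7 and 82.8 CPM in null-labelled and wt-labelled members. The sliding clamp Pcna was within 2-fold at 56.1 and 70.9 CPM. The median stayed negative over all alternatives, from -1.11 to -0.80, and was -0.82 when barcodes were thinned to 5000 UMIs before the rule and -0.83 without the members with 5 or more UMIs of Car1 and Car2. With either change 5 genes were called lower.

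Mitosis genes were closer to the bulk. Of 39 compared, 36 of them above 50 CPM in both libraries, none was higher and 3 were lower: Top2a (a rule gene), the cyclin-dependent kinase subunit Cks1b (79.7 and 167 CPM) and the kinase Pbk (30.8 and 76.6 CPM, null-labelled first). Their median log2 ratio was -0.32, beside -0.17 for all genes, of which 12.7% were lower. Cdk1, the mitotic kinase, had 191 and 226 CPM, Ccnb1, its cyclin, 136 and 103 CPM, and Birc5, survivin of the chromosomal passenger complex, 366 and 359 CPM. Mki67, which the rule used, had 348 and 615 CPM. In cells thinned to 2000 UMIs replication genes had a median of 1 UMI in null-labelled and 3 UMIs in wt-labelled members, and mitosis genes 13 and 18 UMIs. Summed over thinned cells there were 0.125 replication UMIs per mitosis UMI in null-labelled and 0.235 in wt-labelled members, and mitosis exceeded replication in 89.5% and 84.7% of cells. The rule asks for a fixed number of Mki67 and Top2a UMIs, which deeper cells reach at a lower level, and the median member had 9 such UMIs in the null-labelled and 15 in the wt-labelled library.

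Histone and chromatin genes had 0 higher and 2 lower of 15 compared, near the 12.7% of all genes called lower. The lower ones were the microtubule regulator Stmn1 (326 and 826 CPM) and the damage-marking histone H2afx (162 and 363 CPM). The median of the list changed sign with TMM factors. Among genes that slow or gate the cycle 9 of 31 were compared and 1 was called lower, where 12.7% of all genes were. It was the kinase Cdk6, at 9.62 CPM in null-labelled members, against 58.7 CPM in wt-labelled members (ratio 0.164, 0.112 to 0.232). Cdk6 had passed the 50 CPM limit through the wt-labelled library alone. Of its wt-labelled UMIs 10 cells held 32.7%, 6 of them marked as doublets. No gene of the list was called without the marked cells or without the members rich in Car1 and Car2, where Cdk6 no longer reached 50 CPM. The log2 ratio of Cdk6 was -2.61 over all members and there -2.34 and -2.24. It was -1.79 with barcodes thinned to 5000 UMIs before the rule. Cdkn2d, the inhibitor that increases as neutrophil precursors leave the cycle, had 306 and 231 CPM, and the cyclin Ccnd3 347 and 378 CPM, null-labelled first.

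The chemokine receptors Cxcr4 and Cxcr2 lay within 2-fold. Cxcr4, the receptor for the retention signal Cxcl12, had 85.2 CPM in null-labelled and 89.3 CPM in wt-labelled members, and Cxcr2, which draws neutrophils out, 68.4 and 41.5 CPM. Of 14 receptor and retention genes compared 4 were higher and 3 lower, where 9.41% and 12.7% of all genes were. The higher ones included Ly6e (647 and 41.3 CPM), Ly6c2 (1524 and 662 CPM) and the chemokine receptor Ccr1 (162 and 43.5 CPM), and the lower ones were Ly6g, Csf3r and Itgam, the last within 2-fold with TMM factors. However, 4 of the 14 had passed the 50 CPM limit only through the null-labelled and 2 only through the wt-labelled library. Of the 8 that passed in both, 2 were higher and 1 lower. Of the NADPH oxidase, which makes superoxide, 9 of 10 genes were compared and 1 was lower, where 12.7% of all genes were. The proton channel Hvcn1 was lower (34.9 and 88.1 CPM) and the others, such as the catalytic subunit Cybb at 881 and 1452 CPM and the organizer Ncf1 at 246 and 448 CPM, lay within 2-fold. Hvcn1 had passed the 50 CPM limit through the wt-labelled library alone, and of the 8 that passed in both none was called.

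Around integrin β3, 4 of 12 genes were compared and 1 was higher, where 9.41% of all genes were. Thbs1, thrombospondin 1, a ligand of β3 integrins, had 111 CPM in null-labelled members, against 7.28 CPM in wt-labelled members (ratio 15.3, 11.2 to 21.3), and 10 null-labelled cells held 44.1% of its UMIs. The integrin activators Tln1, talin (176 and 346 CPM), and Fermt3, kindlin 3 (94.8 and 104 CPM), lay within 2-fold. Of the 4 compared, 2 had passed the 50 CPM limit through the null-labelled library alone, Thbs1 among them. Of the 2 that passed in both libraries none was called. None of 19 cholesterol synthesis and uptake genes reached the limits. Of the 19, 16 had a lower CPM in null-labelled members, as had 64.5% of all genes with any UMI.

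Among the housekeeping lists the heat shock genes had 4 of 10 lower and none higher, where 12.7% of all genes were lower. The 4 were Hsp90aa1, Hsp90ab1, Hspd1 and Hspe1. However, 1 of the 10 had passed the 50 CPM limit only through the null-labelled and 2 only through the wt-labelled library. Of the 7 that passed in both, 2 were lower. Hspe1, a mitochondrial chaperonin, had 14.3 CPM in null-labelled members, against 74.2 CPM in wt-labelled members, but 10 wt-labelled cells held 71.0% of its UMIs and its log2 ratio of -2.38 was -0.73 without the members rich in Car1 and Car2. No heat shock gene was called lower without those members, and 1 was with barcodes thinned to 5000 UMIs before the rule. The same cells held much of Car2, the gene furthest lower by its interval, whose log2 ratio was -6.53 with and -2.05 without them, and of Prdx2, a peroxiredoxin abundant in red cells (-3.27 and -1.14). All 13 mitochondrially encoded genes had a lower CPM in null-labelled members, as had 64.5% of all genes with any UMI. Of the 11 compared 3 were called lower, mt-Nd2, mt-Nd3 and mt-Nd4, where 12.7% of all genes were. The number was 1 with TMM factors, 1 without the members rich in Car1 and Car2 and 0 with barcodes thinned to 5000 UMIs before the rule, while mt-Co1 had 3837 and 4017 CPM and changed sign with TMM factors. In glycolysis 2 of 15 were lower, near the 12.7% of all genes. They were the myeloid hexokinase Hk3 (18.1 and 126 CPM) and the pentose phosphate enzyme Taldo1 (185 and 659.6 CPM), while Gapdh had 1295 and 1053 CPM. Hk3 had passed through the wt-labelled library alone. All 4 survival and death genes compared of 22 were higher, where 9.41% of all genes were. Of the 4, Bak1, Casp1 and Casp4 had passed through the null-labelled library alone. Mcl1, on which neutrophil survival depends, had 331 and 124 CPM. Of 7 immediate early genes compared 2 were higher, where 9.41% of all genes were, namely Jund (138 and 50.4 CPM) and Klf2 (230.0 and 106 CPM). The number was 1 with barcodes thinned to 5000 UMIs before the rule and 3 with TMM factors. It was also 1 when 1 UMI of Mki67 or Top2a sufficed for membership.

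The remaining genes furthest lower were Clec12a, an inhibitory lectin receptor of myeloid cells (38.2 CPM in null-labelled and 347 CPM in wt-labelled members), Gatm, an enzyme of creatine synthesis (9.07 and 80.5 CPM), C1qtnf12 (9.62 and 91.6 CPM), and Ly75, an endocytic receptor (9.89 and 75.2 CPM). Cdca7 (8.24 and 62.0 CPM), the ketone body enzyme Oxct1 (7.14 and 54.4 CPM), the calcium-binding grancalcin Gca (28.3 and 170.3 CPM) and Igfbp4, which binds insulin-like growth factors (10.99 and 74.2 CPM), completed the 14. Of C1qtnf12, 10 wt-labelled cells held 42.2% of the UMIs, and its log2 ratio of -3.25 was -2.60 without the members rich in Car1 and Car2.

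The differences between the libraries were in part those of the neighbouring stages. The interferon list had a median log2 ratio of 5.10 in promyelocyte cells (28 of 28 compared called higher, where 9.08% of all genes were), 4.35 in members and 4.01 in immature cells (40 of 42, where 17.8% were). Here too a gene entered when it reached 50 CPM in either library. Gbp2 in promyelocyte cells, at 745 and 1.02 CPM, did so through the null-labelled library alone. The counts called in these stages thus say little by themselves. Ratios of single genes still differed in size between members and immature neutrophils. For Isg15 the null-labelled over wt-labelled ratio of members was 6.11 times that of immature cells (counting interval 3.89 to 9.61), with 772 CPM in null-labelled and 29.5 CPM in wt-labelled immature cells. For Stfa2l1 it was 29.5 times (21.8 to 39.9), with 211 and 165 CPM. For Lyz2 it was 1.35 times (1.28 to 1.43), with 818 and 12552 CPM, and for Retnlg 0.963 times (0.869 to 1.07). These intervals compare cells of the same 2 libraries and say nothing of other animals.

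The replication and late neutrophil lists had different medians by stage. DNA replication genes had a median log2 ratio of -0.06 in promyelocyte cells, where 25 were compared and none passed 2-fold in either direction (7.86% of all genes were lower there), and of -1.03 in members. In members 15 were compared, 10 of which had passed through the wt-labelled library alone, so these medians rest on different genes. Rrm2 had 180.3 CPM in null-labelled and 208 CPM in wt-labelled promyelocyte cells, against 78.3 and 221 CPM in members, and Dut 329.6 and 491 CPM against 55.2 and 183 CPM. Late neutrophil genes had a median of 2.91 in promyelocyte cells, 0.88 in members and -0.72 in immature cells. In immature cells 9 of 21 were lower (12.3% of all genes were) and 3 higher (17.8% were). The level of Thbs1 increased with stage in both libraries, with 4.55, 111 and 417 CPM in promyelocyte, dividing and immature null-labelled cells and 0, 7.28 and 175 CPM in wt-labelled cells. The null-labelled promyelocyte group held 34 cells and the immature groups were 396 and 1368 cells, so the lists were compared over different numbers of genes in each stage.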

How the data were processed

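The authors deposited 1 matrix of UMI counts per library, as filtered by Cell Ranger with 3.1.0 written in the file header. Per the submitters' processing notes, Cell Ranger 3.0, Seurat and the mm10 genome were used. The labels and headers do not name the annotation. Of the feature identifiers 99.6% were found in GENCODE vM21, from which gene positions (GRCm38) were taken. The files held 4281 null-labelled and 12764 wt-labelled barcodes, of which the barcode filter removed 30.5% and 27.3%. The 2974 and 9285 cells kept had a median depth of 9363.5 and 4999 UMIs.

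UMI counts of the members were summed per library and divided by their total (CPM). The interval of a level is the exact Poisson one. The interval of a ratio is the exact binomial (Clopper-Pearson) one of the split of the gene's UMIs. PCR copies are collapsed by UMI, and intervals cover counting error only. Genes entered the comparison when they reached 50 CPM in null-labelled or wt-labelled members and 30 UMIs in all, and 2-fold was the rule of size. No doublets were removed, and Scrublet scores (scanpy 1.11.5) marked the top 0.8% per 1000 cells of each library for an alternative. Thinning drew UMIs without replacement to 2000 per cell, leaving out 1 null-labelled and 5 wt-labelled members. The gene lists, the markers and the members were chosen with earlier results of these data known.

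Genes named were the 14 highest and the 14 lowest ranked by whichever end of the 95% interval of the ratio was closer to 1, without Gm and Rik models, antibody segments or sex-linked marker genes. To these were added, per list, the 2 with most CPM and the 2 with the largest ratio, the stage markers, the genes of the rule, Itgb3, Itga2b, Itgav and Apoe, and the 8 highest and the 8 lowest along the terciles. Others, such as Cxcr4, Gfi1 or Nfkb1, were chosen after their values were seen, to account for the calls of a list. Alternatives changed the barcode filter, the limits of the rule, doublets, depth, scaling (TMM of edgeR 4.0.16), the summary over cells, free RNA and the filter on low counts. One alternative, without cells with 5 or more UMIs of Car1 and Car2, was chosen after seeing the data, for the comparison and for the terciles. Python 3.11.15, numpy 2.4.6, scipy 1.17.1, pandas 2.3.3, matplotlib 3.10.9 and R 4.3.3 were used, and the gene comparison was tested on simulated data. Some genes of the lists are counted but not reported here by name.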

Additional observations from a re-analysis of the deposited data

How the results depend on the processing

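Of the alternatives tried, the depth-matched rule (each barcode thinned to 5000 UMIs first) turned the ratio of the members' shares from above to below 1, at 0.645. That setting also leaves out shallower barcodes, and the cause was not tested further. The number of genes past 2-fold moved by over 1.5 times with TMM factors (153 lower), with a total that left out the 20 genes with most UMIs (358 higher and 499 lower), with a limit of 10 CPM (491 and 1031) and with no filter on low counts (1725 and 3979). The filters change how many genes enter, and the total without the 20 genes raises every CPM so that more genes reach 50 CPM. The other 28 recomputed values of the share and the 2 counts kept their direction and lay within 1.5 times. For single genes and list medians 1154 recomputed values stayed close to those reported and 281 moved. The medians of glycolysis, receptors, primary granule genes and histones, and the ratios of Ccnd3, Hmgb2 and mt-Co1, changed sign with another setting (TMM factors for all but the receptors, whose median turned with 1 UMI of Mki67 and Top2a as the limit). Those of S100a8 and S100a9, near 1 throughout, changed sign with other selections of cells and with the mean over cells. No paired analysis was possible because each genotype has 1 library. For the same reason no replicate could be left out. Depth limits genes of a few UMIs per library, such as Itgb3, and the rule's count of Mki67 and Top2a.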
